A study of Rattus norvegicus with 6 samples.

Results

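The MCM family holds the genes of the minichromosome maintenance proteins, the subunits of the helicase that unwinds DNA during replication, and of their closest relatives and binding partner. Its members were taken by name, namely Mcm2, Mcm3, Mcm4, Mcm5, Mcm6, Mcm7, Mcm8, Mcm9, Mcm10 and Mcmbp, and all 10 were found, each as 1 row, among the 32883 genes of the expression table. They were measured in cultured oligodendrocyte precursor cells (OPCs), the dividing glial cells that give rise to the myelinating oligodendrocytes. The cells came from the cerebral cortex of newborn Sprague Dawley rats (postnatal day 0 and 2 cortices per the labels, whereas the methods give the cortices of 2 rats and ages from day 0 to day 2), were shaken off a mixed culture, and were treated either with ZJU-37 at 5 μM, an inhibitor of the kinase RIPK1 derived from necrostatin-1s, or with an equal volume of DMSO as the control. The labels give 36 h of treatment and the methods a shorter time, and both groups share the strain, the age and the culture protocol. Each group had 3 libraries made from poly-A RNA, and the comparison asks which MCM transcripts differ in level after RIPK1 inhibition. The methods call the libraries biological repeats and a figure legend calls them plate wells, and neither source ties a library to its own animals.

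MCM2 to MCM7 form a ring of unlike subunits that is loaded onto replication origins in G1 in an inactive state and is switched on in S phase, when CDC45 and the GINS complex join it to make the active helicase. MCM10 takes part in that activation, MCMBP binds MCM subunits outside the loaded ring, and MCM8 and MCM9 form a separate helicase that acts in homologous recombination repair. Resting cells lose most of these proteins and cycling cells keep them, so MCM proteins are widely used as markers of cells able to replicate, and many MCM genes are known targets of the E2F transcription factors.

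Because the members were compared as a group, the DNA before their starts is shown before their values. RefSeq promoter windows of rat assembly GRCr8, which run from 250 bases before to 50 bases after an annotated start, were given for 9 of the 10 members and not for Mcm4. The E2F motif was searched as TTTCCCGC or TTTGGCGC, and in a looser form as TTTNNCGC that includes both of these, each on either strand, so that overlapping matches on opposite strands count separately. The 250 upstream bases are printed 5′ to 3′ on the strand of the gene for the 5 ring subunits with a window and for Mcm9 and Mcm10, the members without a match, and capitals mark matches to TTTNNCGC.
Mcm2 (chr4:122918095-122918344, minus strand): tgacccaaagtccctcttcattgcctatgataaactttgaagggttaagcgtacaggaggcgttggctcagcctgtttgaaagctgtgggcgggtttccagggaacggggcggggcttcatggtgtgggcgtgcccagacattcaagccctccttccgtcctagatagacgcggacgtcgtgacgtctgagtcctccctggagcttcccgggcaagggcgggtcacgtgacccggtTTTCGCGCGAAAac
Mcm3 (chr9:30733747-30733996, minus strand): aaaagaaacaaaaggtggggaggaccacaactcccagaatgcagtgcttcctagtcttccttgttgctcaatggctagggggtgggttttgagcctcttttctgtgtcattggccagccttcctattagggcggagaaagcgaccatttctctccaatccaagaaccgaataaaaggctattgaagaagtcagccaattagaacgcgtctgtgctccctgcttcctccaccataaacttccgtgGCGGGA
Mcm5 (chr19:13488563-13488812, plus strand): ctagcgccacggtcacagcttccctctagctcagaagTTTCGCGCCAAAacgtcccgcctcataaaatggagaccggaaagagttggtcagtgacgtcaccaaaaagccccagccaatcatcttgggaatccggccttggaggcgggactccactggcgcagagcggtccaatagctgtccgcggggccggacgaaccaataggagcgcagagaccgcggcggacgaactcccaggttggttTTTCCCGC
Mcm6 (chr13:42404353-42404602, minus strand): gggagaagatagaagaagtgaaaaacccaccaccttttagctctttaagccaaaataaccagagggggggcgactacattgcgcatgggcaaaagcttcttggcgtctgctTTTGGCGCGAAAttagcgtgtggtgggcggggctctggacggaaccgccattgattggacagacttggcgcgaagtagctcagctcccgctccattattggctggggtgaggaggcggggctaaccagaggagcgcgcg
Mcm7 (chr12:22163179-22163428, minus strand): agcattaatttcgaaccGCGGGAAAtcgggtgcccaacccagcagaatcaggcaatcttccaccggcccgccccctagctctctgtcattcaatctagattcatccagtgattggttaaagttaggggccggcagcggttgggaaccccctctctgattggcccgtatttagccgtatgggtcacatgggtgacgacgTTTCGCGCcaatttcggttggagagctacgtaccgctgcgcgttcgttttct
Mcm9 (chr20:33472244-33472493, minus strand): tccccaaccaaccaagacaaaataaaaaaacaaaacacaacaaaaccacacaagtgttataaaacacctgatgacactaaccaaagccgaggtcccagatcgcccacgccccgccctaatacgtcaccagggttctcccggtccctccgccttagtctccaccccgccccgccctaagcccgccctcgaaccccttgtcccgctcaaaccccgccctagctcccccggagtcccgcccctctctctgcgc
Mcm10 (chr17:78175137-78175386, plus strand): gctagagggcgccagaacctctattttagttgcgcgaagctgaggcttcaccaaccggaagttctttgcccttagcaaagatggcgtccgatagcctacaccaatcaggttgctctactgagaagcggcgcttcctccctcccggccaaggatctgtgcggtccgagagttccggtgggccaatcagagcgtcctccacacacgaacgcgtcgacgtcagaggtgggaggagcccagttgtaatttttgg
The looser motif was found in the windows of all 5 ring subunits, of Mcm8 and of Mcmbp, 7 of 9 members, and the stricter motif in 6 of 9, Mcm2 holding only the looser form. Of the windows of 27457 genes in the RefSeq table (the window listed first where a gene has several), 5.19% held the looser and 1.53% the stricter form, and of the 10396 windows whose symbol matched a gene tested here 8.35% and 2.90% did. Mcm5 held 2 stricter matches, at positions -209 to -202 and at -8 to -1, ending at the base just before the start. In Mcm2 the paired looser matches lay between positions -14 and -3, and in Mcm6 they lay between -139 and -128. In Mcm3 the stricter match ran from -6 to 2, across the start, so that its capitals break off at the end of the printed stretch. The match of Mcmbp lay after the start, at positions 26 to 33. The sequence CCAAT, on either strand, occurred in 7 of the 9 windows, including 3 times in each of Mcm3, Mcm5 and Mcm7, against 37.4% of the windows of tested genes. In the gene lists compared below, the stricter E2F motif was in 66.7% of 6 windows for loading and 30% of 10 for activation. It was in 50% of 2 for other MCM partners, 27.3% of 22 for the fork and 0% of 14 for mitosis. CCAAT was in 33.3%, 50%, 100%, 50% and 78.6% of these windows, in the same order of lists. The start used for the Mcm10 window lies 3338 bases inside the outermost RefSeq boundary of the gene, so another start of Mcm10 was not searched. Those of Mcm2, Mcm7 and Mcm8 lie 111, 142 and 57 bases inside. These are matches of letters, which say nothing on whether a factor was bound.

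The libraries held between 13935865 and 24097927 counts, at which 3 counts correspond to at most 0.215 CPM (counts-per-million, counts scaled to the library total), and the lowest member count was the 121 of Mcm8, so none of the 10 was near that limit, which covers counting error only. All CPM values are given after TMM scaling, which sets the libraries level over the bulk of genes. All 6 OPC markers were expressed, with a summed level between 3528 and 4099 CPM in the DMSO group and between 4382 and 6032 CPM in the ZJU-37 group, and of these Pdgfra, Cspg4, Olig1 and Ptprz1 were called higher and Sox10 lower with ZJU-37. The cultures also held RNA of other cells. The 6 mature oligodendrocyte markers summed to between 10457 and 21164 CPM with DMSO and to between 4471 and 9466 CPM with ZJU-37, with 1 of 6 called lower, the 10 microglia markers to between 2272 and 3944 CPM and between 1655 and 3451 CPM, and the 7 astrocyte markers to between 479 and 848 CPM and between 311 and 546 CPM, with 1 called lower. The 8 neuron markers summed to between 187 and 313 CPM with DMSO and between 167 and 244 CPM with ZJU-37. The 3 endothelial and fibroblast markers with a row summed to between 28.5 and 61.8 CPM and between 16.8 and 47.5 CPM, the endothelial gene Cldn5 having 0 counts. In such bulk RNA more cells of a type cannot be told apart from more RNA per cell, and the part of the lower oligodendrocyte and astrocyte markers in the MCM values was not tested.

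ZJU-37-treated OPCs had about 2-fold higher levels of all 6 ring subunits, of Mcm10 and, by a smaller factor, of Mcm8. Mcm9 and Mcmbp did not pass the test in the main fit, which held the group only. A fit with a replicate block called Mcmbp higher (edgeR adjusted p = 0.00906). In the edgeR quasi-likelihood fit across 14670 genes, 8 of the 10 members were higher at an adjusted p-value (Benjamini-Hochberg) under 0.05 and the other two were not called, beside 9.43% of all tested genes called higher and 5.58% called lower. A log2 fold change of at least 1 was reached by 6 of the 10, Mcm2, Mcm3, Mcm4, Mcm5, Mcm6 and Mcm10, beside 2.79% of all tested genes. The median log2 fold change was 1.14 for Mcm2 to Mcm7 and -0.03 for all tested genes. In 9 of the 10 members each ZJU-37 library lay above each DMSO library, which 19% of the tested genes did. In the remaining member, Mcm9, each lay below, and the share of tested genes that did so was not counted.

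**Figure D1:**
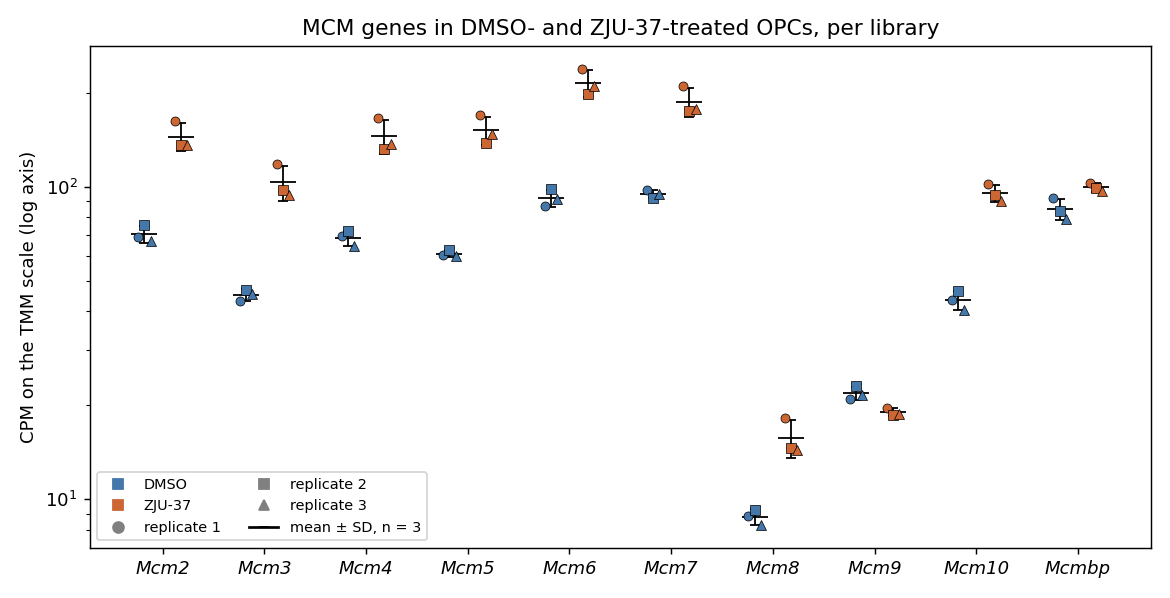
Level of the 10 MCM genes in each library, in CPM on a log axis, with DMSO in blue, ZJU-37 in orange, the replicate number as the marker shape, and the mean and SD of 3 libraries as lines. The groups are apart for every gene, widely for Mcm2 to Mcm7 and Mcm10 and narrowly for Mcm9 and Mcmbp, and in the ZJU-37 group replicate 1 is the highest library for all 10 genes.

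Mcm5 had the largest change among the members. It encodes a ring subunit that, with MCM2, forms the gate through which the ring opens around DNA, and it is listed (ENSRNOG00000014336) on chromosome 19 from 14523554 to 14561278, in the coordinates of the expression table, whose build is not named. Levels are given here and for the other members in the order of replicate 1, 2 and 3, and for Mcm5 they were 60.4, 62.9 and 60.1 CPM with DMSO against 170, 138 and 148 CPM with ZJU-37. The lowest treated library was thus far above the highest control, and the DMSO libraries lay close together. The means were 61.1 ± 1.55 and 152 ± 16.1 CPM (SD, n = 3 libraries each). The log2 fold change was 1.31 (SE 0.09, edgeR adjusted p = 0.000348).

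Mcm6, the next in size, encodes a ring subunit that binds CDT1 during loading and lies (ENSRNOG00000003703) on chromosome 13 from 45042882 to 45068077. It had 86.9, 98.6 and 91.3 CPM with DMSO and 239, 198 and 210 CPM with ZJU-37. The groups were far apart, and Mcm6 was the member with the highest CPM in every treated library. Its log2 fold change was 1.23 (SE 0.09, edgeR adjusted p = 0.00043).

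Mcm3 (ENSRNOG00000012543), on chromosome 9 from 26914057 to 26932201, encodes the subunit through which the ring first meets the origin recognition complex and CDC6. Its levels were 43.2, 46.9 and 45.5 CPM with DMSO and 119, 98.1 and 94.1 CPM with ZJU-37, the lowest of the ring subunits in all 6 libraries. The log2 fold change was 1.20 (SE 0.10, edgeR adjusted p = 0.000597).

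Mcm4 (ENSRNOG00000001833), on chromosome 11 from 89511191 to 89524892, encodes a ring subunit whose N-terminal tail is phosphorylated by the CDC7-DBF4 kinase when the helicase is switched on. It measured 69.5, 72.1 and 64.6 CPM in the DMSO libraries and 167, 133 and 138 CPM in the ZJU-37 libraries, again without overlap, with a log2 fold change of 1.08 (SE 0.10, edgeR adjusted p = 0.00084). Mcm2 (ENSRNOG00000016316), on chromosome 4 from 120825699 to 120840111, encodes the other side of the gate and also binds histones H3 and H4. Its values of 69.4, 75.7 and 67.2 CPM with DMSO and 162, 136 and 137 CPM with ZJU-37 were close to those of Mcm4 in both groups, and its log2 fold change was 1.04 (SE 0.09, edgeR adjusted p = 0.000705).

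Mcm7 (ENSRNOG00000001349), on chromosome 12 from 19306607 to 19314016, changed least among the ring subunits. It encodes the subunit that is ubiquitylated when the helicase is taken off the DNA, and its introns carry the miR-106b, miR-93 and miR-25 hairpins. Its levels were 98.0, 92.5 and 94.9 CPM with DMSO and 211, 175 and 177 CPM with ZJU-37, the highest ring subunit in DMSO replicates 1 and 3. The log2 fold change of 0.98 (SE 0.09, edgeR adjusted p = 0.000667) fell just short of the limit of 1, with a 95% interval from 0.78 to 1.18, not adjusted for the number of genes. That of Mcm2 just passed the limit, with an interval from 0.82 to 1.25.

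Mcm10 followed the ring subunits. It encodes a replication initiation factor that is no ring member and shares their name but not their helicase fold, and it is listed (ENSRNOG00000017981) on chromosome 17 from 77224112 to 77246478. It had 43.4, 46.5 and 40.3 CPM with DMSO and 102, 94.0 and 90.6 CPM with ZJU-37, with the treated libraries closer together than for any ring subunit relative to their mean. Its log2 fold change was 1.14 (SE 0.08, edgeR adjusted p = 0.000403), within the 0.98 to 1.31 spanned by the ring subunits. Mcmbp (ENSRNOG00000020394), on chromosome 1 from 200118228 to 200163106, encodes the MCM-binding protein and did not follow them. Its levels were 92.1, 84.1 and 79.0 CPM with DMSO and 103, 99.1 and 97.0 CPM with ZJU-37, so that the groups lay close together without overlap. The log2 fold change was 0.23 (SE 0.07, 95% interval 0.06 to 0.40), with an edgeR adjusted p-value of 0.0819 that became 0.00906 in the fit with a replicate block. The blocked fit called 9 of 10 members higher, beside 16.2% of all tested genes.

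The partners of the repair helicase differed. Mcm8 (ENSRNOG00000021272), on chromosome 3 from 125470551 to 125500795, had 8.84, 9.26 and 8.28 CPM with DMSO and 18.2, 14.5 and 14.3 CPM with ZJU-37. It was the least expressed member in CPM and still rose without overlap, with a log2 fold change of 0.84 (SE 0.13, edgeR adjusted p = 0.00762) and a 95% interval from 0.52 to 1.15. Mcm9 (ENSRNOG00000003281), on chromosome 20 from 34846804 to 34929965, had 20.9, 23.0 and 21.6 CPM with DMSO and 19.6, 18.6 and 18.7 CPM with ZJU-37. Its log2 fold change was -0.20 (SE 0.08, edgeR adjusted p = 0.159), with an unadjusted 95% interval from -0.40 to -0.01, which is 0.76 to 0.99 of the DMSO level. The span of Mcm9 contains Asf1a on the opposite strand, a histone chaperone gene whose own log2 fold change was 0.27 (edgeR adjusted p = 0.0896, or 0.0118 in the blocked fit, which called it higher). The kit is not stated to keep the strand, so reads from any exonic overlap of the 2 genes could not be told apart, and the value of Mcm9 is uncertain to that extent.

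Per length, Mcm9 was above Mcm8 in every DMSO library and below it in every ZJU-37 library. The ratio of Mcm8 to Mcm9 in CPM per kilobase was 0.80, 0.76 and 0.73 with DMSO and 1.76, 1.48 and 1.45 with ZJU-37. The mean log2 ratio moved from -0.39 ± 0.07 to 0.64 ± 0.15 (SD, n = 3 libraries each), and the two-sided exact permutation test over the libraries gave p = 0.1, below which this test cannot go with so few libraries. This ratio was chosen after the values had been seen.

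**Figure D2:**
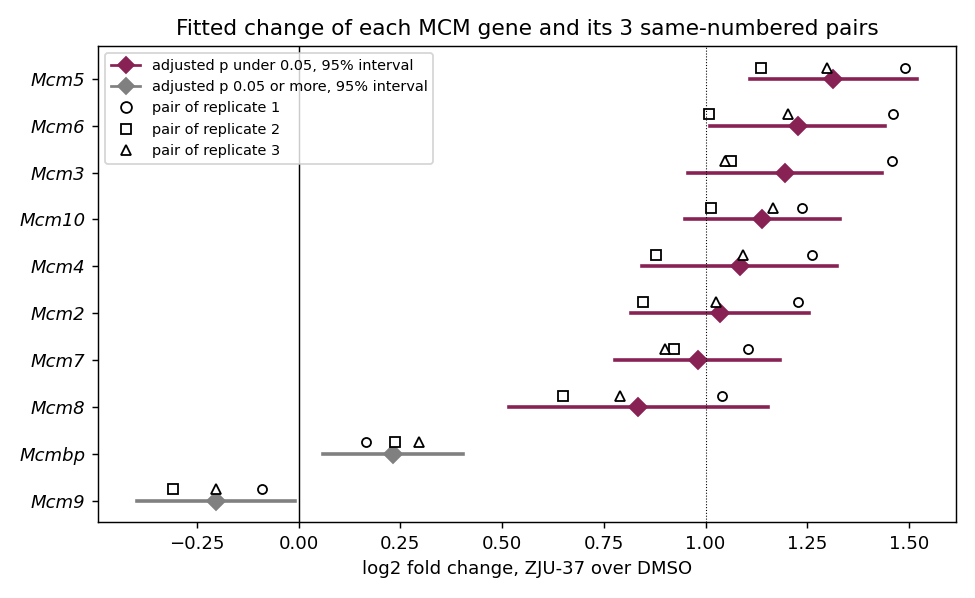
Log2 fold change of each MCM gene (diamonds, with 95% intervals not adjusted for the number of genes) and the log2 difference within each pair of same-numbered libraries (open symbols above). The 8 genes in purple have an adjusted p-value under 0.05, Mcmbp and Mcm9 in grey do not, and the pair of replicate 1 gives the largest difference for each of those 8.

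The size of the increase differed about as much between the pairs of same-numbered libraries as between the subunits. For Mcm2 to Mcm7 the mean log2 difference was 1.33, 0.98 and 1.09 in the pairs of replicate 1, 2 and 3, against -0.05, 0.02 and 0.00 for the mean of all tested genes. Mcm6, for example, differed by 1.46, 1.01 and 1.20, and Mcm3 by 1.46, 1.06 and 1.05. ZJU-37 replicate 1 held the highest level of each member in its group, whereas among the DMSO libraries replicate 2 was the highest for Mcm2 to Mcm6 and for Mcm8 to Mcm10 but not for Mcm7 or Mcmbp. With both libraries numbered 1 left out, 9 of 10 members were called higher, beside 2037 genes called in that fit, 65.9% of them higher. The median log2 fold change of Mcm2 to Mcm7 was then 1.03. With each library left out in turn it stayed between 1.05 and 1.22, and the largest adjusted p-value of any of the 8 called members was 0.0362, for Mcm8 (edgeR).

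To compare levels between genes, CPM was divided by the gene length of the table, which gives CPM per kilobase. With DMSO the order was Mcm7 (38.3 ± 1.11 CPM per kilobase, SD, n = 3), Mcmbp (34.5 ± 2.68), Mcm6 (31.6 ± 2.03), Mcm2 (21.7 ± 1.36), Mcm4 (20.6 ± 1.14), Mcm5 (19.3 ± 0.491), Mcm3 (15.4 ± 0.649), Mcm10 (8.61 ± 0.615), Mcm9 (3.58 ± 0.181) and Mcm8 (2.73 ± 0.153). Among neighbours in this order the ranges overlapped for Mcm7 and Mcmbp, for Mcmbp and Mcm6, for Mcm2 and Mcm4, and for Mcm4 and Mcm5. The other neighbours did not overlap. Within each DMSO library, however, every gene of this order lay above the next. With ZJU-37 the order became Mcm7 (75.6 ± 7.97 CPM per kilobase), Mcm6 (74.0 ± 7.22), Mcm5 (48.1 ± 5.09), Mcm2 (44.5 ± 4.62), Mcm4 (43.6 ± 5.49), Mcmbp (40.4 ± 1.32), Mcm3 (35.3 ± 4.49), Mcm10 (19.0 ± 1.20), Mcm8 (4.87 ± 0.676) and Mcm9 (3.11 ± 0.0906). Here the ranges of Mcm7 and Mcm6 overlapped, as did those of each neighbouring pair from Mcm5 down to Mcm3. Within single libraries, Mcm7 lay above Mcm6, Mcm2 above Mcm4 and Mcm4 above Mcmbp in 2 of 3. The other neighbours kept their order in all 3. Mcmbp, which lay between Mcm7 and Mcm6 in every DMSO library, was thus passed by Mcm6, Mcm5, Mcm2 and Mcm4 in the mean of the ZJU-37 group. The repair helicase genes stood far below the ring in both groups, Mcm8 at between 8.73% and 11.4% of the mean ring subunit per length in all 6 libraries, and Mcm9 at between 14.1% and 14.9% with DMSO and between 5.35% and 6.16% with ZJU-37.

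The 6 ring subunits stand in equal number in the protein complex, but their transcripts were not equally abundant. Their summed level was 145, 152 and 144 CPM per kilobase with DMSO and 361, 297 and 305 with ZJU-37, with means of 147 ± 4.21 and 321 ± 34.5 (SD, n = 3 libraries each), a 2.19-fold difference. The most abundant subunit exceeded the least abundant, Mcm3 in every library, by between 2.33 and 2.68 times with DMSO and by between 2.09 and 2.25 times with ZJU-37. The most abundant was Mcm7 in 5 libraries and Mcm6 in ZJU-37 replicate 3.

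As a share of the sum, Mcm7 took 27.2%, 24.5% and 26.5% with DMSO and 23.5%, 23.7% and 23.4% with ZJU-37, the largest shift of any subunit, at -2.54 percentage points. Mcm5 took 13.2%, 13.1% and 13.2% with DMSO and 14.9%, 14.7% and 15.3% with ZJU-37, a shift of 1.81 points beside SDs of 0.0452 points with DMSO and 0.302 points with ZJU-37. The share of Mcm6 was 1.56 points higher and that of Mcm2 differed by -0.90 points, likewise without overlap between the groups, whereas Mcm3 (0.50 points) and Mcm4 (-0.43 points) overlapped. With single libraries left out, the shift of Mcm3 lay between 0.328 points, without DMSO replicate 1, and 0.745 points, without ZJU-37 replicate 3, and that of Mcm4 between -0.264 points, without DMSO replicate 1, and -0.710 points, without DMSO replicate 3. Over the 6 subunits the two-sided exact permutation test gave p = 0.1 for the 4 that did not overlap and p = 0.3 for Mcm3 and Mcm4, or 0.15 and 0.3 after Benjamini-Hochberg adjustment. Since 3 libraries against 3 cannot give less than 0.1 in this test, it could not pass a threshold of 0.05. The shares rest on the gene lengths of the table, which may not be those of the transcripts expressed here.

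**Figure D3:**
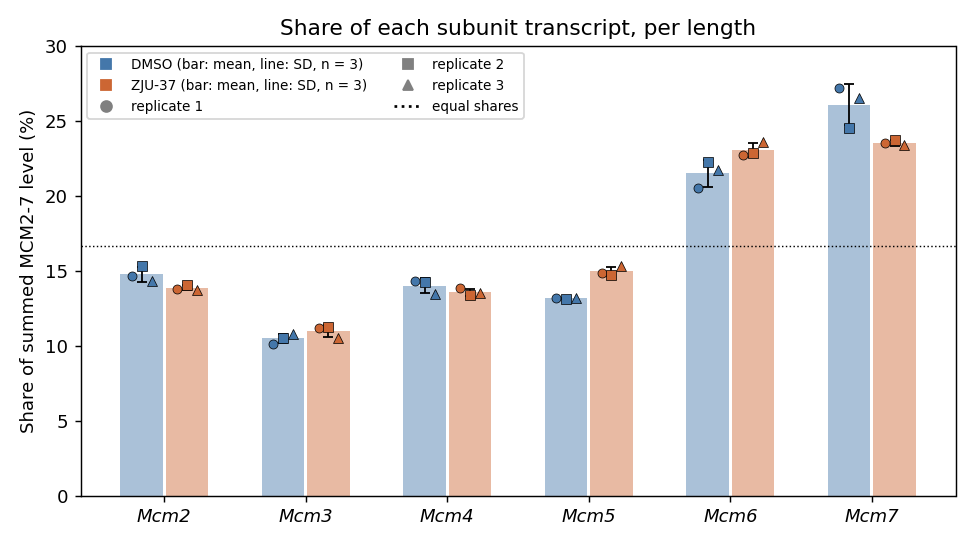
Share of each ring subunit in the summed length-scaled level of Mcm2 to Mcm7 in each library, in percent, with bars for the group mean, lines for the SD of 3 libraries and a dotted line at equal shares. The ZJU-37 libraries lie below the DMSO libraries for Mcm7 and Mcm2 and above them for Mcm5 and Mcm6, and Mcm7 and Mcm6 lie above the equal share throughout.

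The MCM genes were next set beside 5 lists, for helicase loading, helicase activation, other ties to MCM proteins, the replication fork and mitosis. Over all tested genes, 9.43% were called higher and 5.58% lower, with a median log2 fold change of -0.03. Of the 9 genes that load the ring or restrain its loading, 6 were called higher and 3 were not called, with a median log2 fold change of 0.63. The largest increases were those of the loading factors Cdc6, from 9.74 ± 1.78 to 27.5 ± 3.44 CPM (SD, n = 3 libraries each), which is 2.84-fold, and Cdt1, from 26.9 ± 1.52 to 67.7 ± 8.33 CPM (log2 fold change 1.33), and of Gmnn, from 21.9 ± 0.527 to 50.9 ± 6.16 CPM (1.22), the gene of geminin, which holds CDT1 back. Within the origin recognition complex, Orc1, Orc2 and Orc6 were called higher, with log2 fold changes of 0.97, 0.43 and 0.63, whereas Orc3 (-0.15), Orc4 (-0.33) and Orc5 (0.06) were not called (these 6 were named after their values were seen). In the blocked fit Orc4 was called lower (edgeR adjusted p = 0.0051, against 0.0876 without it), beside 15.9% of all tested genes.

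Of the 13 genes that switch the loaded ring on, all 13 were called higher, beside 9.43% of all tested genes. Their median log2 fold change was 0.86. Gins1, a subunit of GINS, rose from 13.4 ± 0.948 to 33.4 ± 2.57 CPM (log2 fold change 1.32), Cdc45, the other partner of the active ring, from 16.3 ± 0.241 to 40.0 ± 4.93 CPM (1.29), and Dbf4, the regulatory subunit of the CDC7 kinase, from 2.48 ± 0.257 to 5.81 ± 0.340 CPM (1.23). Unlike the ring subunits, the GINS subunits ranged widely, Gins2 having the smallest change of the list at 0.44 (named after its value was seen). Of the 4 tested genes with other ties to MCM proteins, Traip and Lrr1, which encode ubiquitin ligase components that mark the helicase for removal, were called higher (log2 fold changes 1.18 and 0.86). Mcmdc2, a distant relative of the family that acts in meiosis (0.10), and Mcm3ap, whose product takes part in mRNA export (-0.00), were not. The call for Lrr1 rests on levels of 1.98 ± 0.198 and 3.59 ± 0.317 CPM, and the count of this list fell from 2 to 1 in 5 of the 6 fits that left out a single library, the exception being the fit without ZJU-37 replicate 1.

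The 23 genes of the replication fork were those of the DNA polymerases, primase, clamp, clamp loader, RPA, flap nuclease and ligase. Of these, 20 were called higher and 3 were not called, beside 9.43% of all tested genes called higher. Their median log2 fold change was 0.74. Pola1 and Pole, catalytic subunits of the priming and leading strand polymerases, had log2 fold changes of 1.24 each, and Lig1, the replicative ligase, 1.18. The 3 without a call were Pole3, Pole4 and Pold4, small polymerase subunits, at 0.09, 0.29 and -0.34 (named after their values were seen). The blocked fit called Pole4 higher and Pold4 lower (edgeR adjusted p = 0.00948 and 0.0199, against 0.068 and 0.362 without the block). All 15 tested genes of mitosis were called higher, with a median of 1.23, led by the kinetochore gene Cenpf (1.39), the proliferation marker Mki67 (1.32) and the kinase gene Aurkb (1.32). The log2 fold changes of Mcm2 to Mcm7 spanned 0.98 to 1.31 and those of the mitosis list 0.94 to 1.39. In each of these lists the mean log2 difference was largest in the pair of replicate 1, from 0.62 for the other partners to 1.35 for mitosis, and smallest in the pair of replicate 2, from 0.45 to 1.10, as it was for the MCM ring subunits. Whether the ring subunits differ from a list was not tested.

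**Figure D4:**
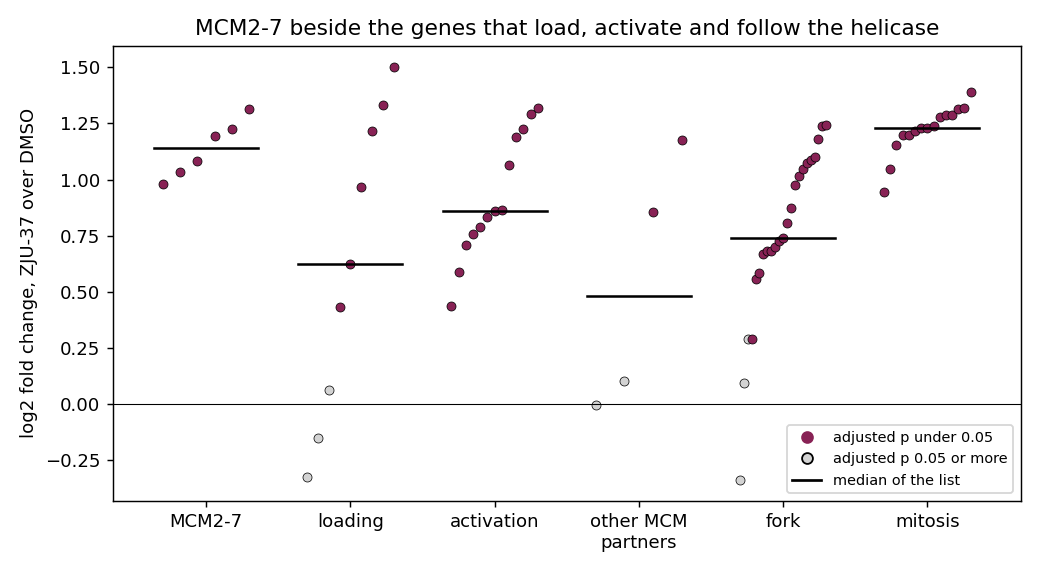
Log2 fold change (ZJU-37 over DMSO) of each gene of the MCM ring and of the 5 lists, purple where the adjusted p-value is under 0.05 and grey where it is not, with a line at the median of each list. The ring subunits lie within a narrow band around 1.14, the loading and fork lists spread from below 0 to above 1, and all activation and mitosis genes are called.

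The genes whose profile was most like that of the ring were sought among the 13781 tested genes outside all lists with a mean of at least 1 CPM, by the root mean square difference between centred log2 CPM profiles over the 6 libraries. The closest were Ska3 (0.0087), Dlgap5 (0.031), Trip13 (0.032), Ncaph (0.032) and Melk (0.038), known for roles in the kinetochore, the spindle, checkpoint and meiotic protein remodelling, chromosome condensation and as a mitotic kinase, in that order. Ska3 measured 19.4, 20.2 and 19.0 CPM with DMSO and 48.3, 40.3 and 41.2 CPM with ZJU-37, a log2 fold change of 1.15 (SE 0.09, edgeR adjusted p = 0.000549). Its likeness to the ring was fixed by the way it was chosen. By the same measure the ring subunits themselves lay between 0.042 (Mcm4) and 0.093 (Mcm7) from their mean, Mcm10 at 0.059, Mcm8 at 0.16, Mcmbp at 0.46 and Mcm9 at 0.67. These distances rest on 6 libraries of 2 groups and are a description.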

How the data were processed

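Rat OPC libraries (3 per group) were poly-A selected and sequenced in paired ends. The authors counted reads per gene and deposited raw counts for 32883 genes with FPKM values. The submitters' processing notes name HISAT2 2.0.5, StringTie 1.3.3b and featureCounts 1.5.0, and the genome build is not given in the sources used here. The deposited FPKM, scaled by the authors to gene length and library total, served only as an alternative. The gene length in the deposited table was used for levels between genes. Columns with the authors' own group means, fold changes and p-values were not used.

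The counts were filtered with filterByExpr, scaled by TMM and tested with edgeR 4.0.16 (glmQLFit, robust, glmQLFTest) in R 4.3.3, all 6 libraries entering 1 model, and p-values were adjusted by Benjamini-Hochberg over 14670 genes. Standard errors came from the log2 fold change and F statistic. Nothing in the labels says that the libraries came from separate animals, so p-values measure the spread between these libraries, which may be technical. Across genes, the departures from the group mean had r = 0.37, 0.301 and 0.32 between libraries of the same number and r from -0.253 to -0.0224 between other pairs. The replicate numbers of the labels were therefore taken as pairs for the pair differences and the blocked fit. The main fit left the pairs out, and its values are given wherever no block is named. No library repeated another of its own group (chi-square per degree of freedom at least 11.8), and pairs across the groups were not checked.

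The members and lists were chosen with earlier results of these data known. Named were all members, the 3 largest called increases and every called decrease of each list, and the 5 genes closest in profile. Hrob, Ccnb2 and Pecam1 of the lists had no row under these names. Promoters were read from RefSeq (GRCr8) by symbol. Planned protein features were not analysed here. The fit was also run on simulated data, with results that are not given here. Alternatives were DESeq2 1.42.0, limma-voom, limma 3.58.1 on log2 FPKM with a pseudocount of 1 or of 0.1, RLE factors or library totals in place of TMM, no filter or at least 10 counts in every library, thinning, the block, 2 stricter thresholds, leaving out libraries, and for the shares the deposited FPKM or no length correction.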

Additional observations from a re-analysis of the deposited data

How the results depend on the processing

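The 8 called members stayed higher with an adjusted p-value under 0.05 in all 18 fits, edgeR, DESeq2 and limma alike, and Mcm9 was negative and not called in all 18. Mcmbp was positive in all 18 and called in 3, with the replicate block (edgeR adjusted p = 0.00906), without DMSO replicate 1 (0.049) and without both libraries numbered 1 (0.0347), a setting chosen after seeing the data. Its adjusted p-value reached 0.104 over the other alternatives and 0.214 with single libraries left out. The number of members called higher was between 6, with the added fold change limit, and 9. The median log2 fold change of Mcm2 to Mcm7 was between 1.03 and 1.17 over the alternatives, and scaling by library totals only moved the median of all genes from -0.03 to 0.00.

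Counts over all genes moved more. With the replicate block 4705 genes were called against 2201 without it, 50.4% of them higher against 62.8%, and at an adjusted p-value under 0.01 the count was 1053. It lay between 1306, without DMSO replicate 2, and 1927 with single libraries left out, and was 1351 without ZJU-37 replicate 3. The other MCM partners called higher numbered between 1 and 2 with single libraries left out and 1 without both libraries numbered 1. The block changed the calls of Mcmbp, Orc4, Pole4, Pold4 and Asf1a and of no other member or gene named with its values. Each share difference moved by less than the SD pooled over both groups, though by more than the smaller group SD for some, as for Mcm5 (1.64 points without ZJU-37 replicate 3) and Mcm7 (-3.32 points without DMSO replicate 2). Shares of the deposited FPKM gave the same differences by construction, since they rest on the same counts and gene lengths, and are no separate check. With 3 libraries per group the smallest p of the exact test was 0.1.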

Other observations

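The rows of the miRNA hairpins inside Mcm7 held few counts in this poly-A RNA. Mir25 had 3, 2 and 3 counts in DMSO replicates 1, 2 and 3 and 8, 12 and 7 in ZJU-37 replicates 1, 2 and 3, Mir93 summed to 4 and 7 counts over the 3 libraries of each group, and Mir106b to 2 and 6. Reads of the Mcm7 transcript or its introns and reads of the hairpins cannot be told apart in such counts, and mature miRNAs were not measured. These rows were chosen after their values were seen.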
